A study of Danio rerio with 6 samples.

Results

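Acute inflammation genes and matrix protease genes of zebrafish larvae were examined on 6 expression arrays, 3 of control larvae and 3 of larvae kept in metronidazole. The set named 9 genes: the collagen-degrading proteases mmp9 and mmp13a, the cytokines il1b and tnfa, the chemokines cxcl8a and cxcl18b, the acute phase gene saa, the iron hormone gene hamp and the metabolic gene irg1l. They were chosen by their array signal, which was seen to vary between the metronidazole arrays, so the difference between the groups is described here for them and no test of it is given. A gene was taken as measured where a transcript cluster, the unit that the array reports, carried its symbol alone. By this rule 8 of the 9 genes were measured, each by 1 transcript cluster, out of 19260 genes in all. The only transcript cluster naming hamp also names hamp2, a symbol that RefSeq now lists as another name of hamp, and no value is given for it.

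All larvae were Tg (mbp:nfsB-egfp), at 10 days post fertilization (dpf). In this line the mbp promoter, taken from a myelin basic protein gene, drives bacterial nitroreductase fused to green fluorescent protein, so that the enzyme is made in oligodendrocyte lineage cells and turns metronidazole into a toxic product there. The metronidazole group was kept in 5 mM metronidazole with 0.2% DMSO from 5 dpf for 5 days in the dark, and the control group in 0.2% DMSO alone. Each array held the pooled RNA of 5 whole larvae, and the study describes the 3 replicates as 3 batches of larvae. No arrays of larvae without the transgene were analysed here, so effects of the drug itself and of any loss of myelin-forming cells cannot be told apart.

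Inflammation starts when cells at a damaged or infected site sense microbial or tissue products through Toll-like receptors and activate the transcription factors NF-kB and AP-1. These switch on il1b and tnfa, which pass the signal to neighbouring cells, and chemokines such as cxcl8a and cxcl18b, which attract neutrophils in zebrafish. The signal also reaches the liver, which secretes serum amyloid A and hepcidin, the products of saa and hamp. Matrix metalloproteinases such as those encoded by mmp9 and mmp13a are released by leukocytes and by epithelium at wound edges, where they cut collagen and open the matrix. The gene irg1l is a zebrafish counterpart of the mammalian gene for the enzyme that makes itaconate, an antimicrobial and regulatory metabolite of activated macrophages.

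The arrays were on a nearly common log2 scale, with medians from 5.1 to 5.14. Metronidazole replicate 1 stood apart from the other 5 arrays. It was the highest array by at least 1 log2 unit for 270 of 19260 genes (1.4%) and the lowest by that much for 280 (1.45%), whereas for the other 5 arrays these shares lay between 0.0156% and 0.737%. Results are therefore given with and without it. The myelin basic protein gene mbpa, a marker of the cells that carry the enzyme, was at 8.69, 8.61 and 8.77 in control and 8.28, 8.71 and 8.66 in metronidazole replicates 1 to 3, and its log2 difference of -0.14 (standard error 0.16) did not pass the test (limma adjusted p = 0.963). Its paralog mbpb differed by 0.03 (standard error 0.13, limma adjusted p = 0.984). By qRT-PCR the study reported lower mbp mRNA in treated larvae of this age, which neither gene showed here as a group difference. Because whole larvae were used, fewer cells of a type and less RNA per cell cannot be told apart.

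**Figure D1:**
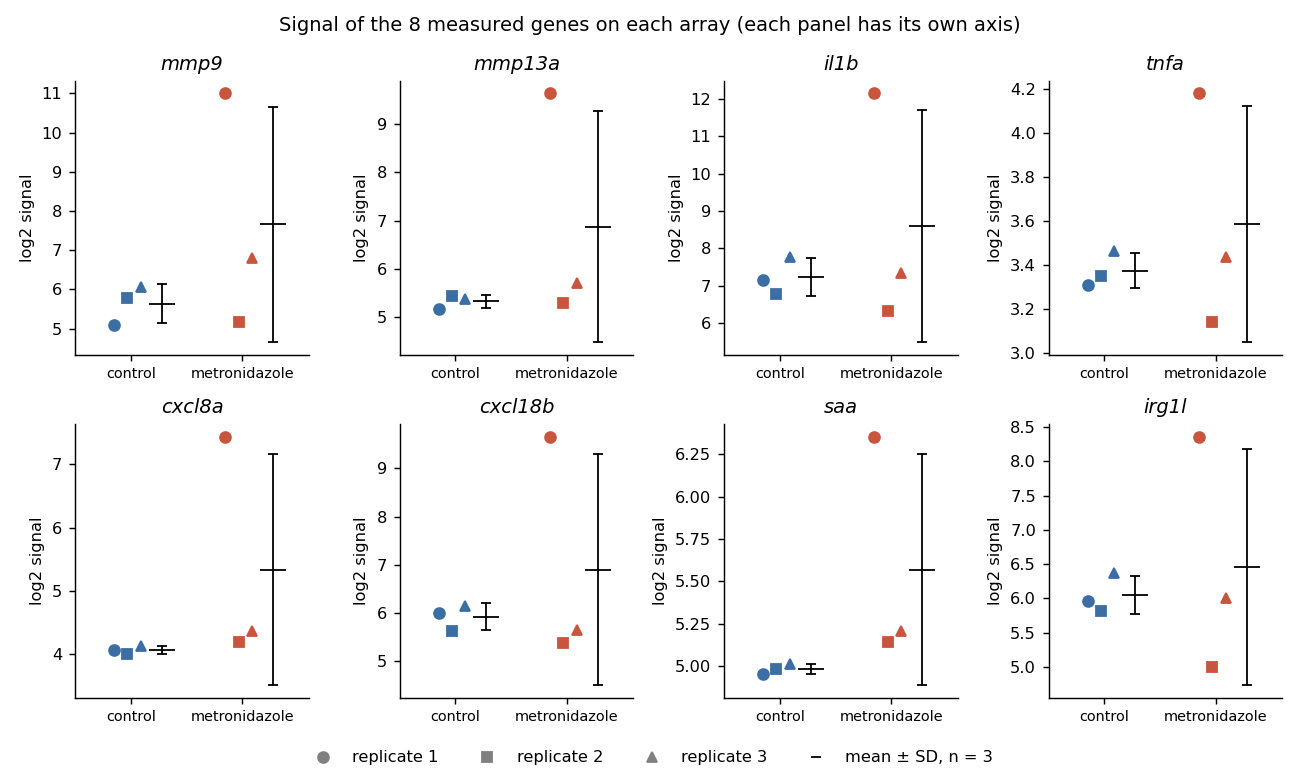
Log2 signal of the 8 measured genes on each array, 1 panel per gene with its own vertical axis. Circles, squares and triangles are replicates 1, 2 and 3, and the horizontal mark with bars is the mean ± SD of 3 arrays. In each panel the highest point is metronidazole replicate 1, and the 2 other metronidazole arrays lie near the controls, for example at 5.18 and 6.80 against 10.998 for mmp9.

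The genes of both matrix proteases were far higher in metronidazole replicate 1 than on any other array. The gene mmp9 encodes gelatinase B, which cuts denatured collagen and is stored in neutrophil granules in mammals. Its log2 signal was 5.09, 5.77 and 6.06 in control replicates 1 to 3 and 10.998, 5.18 and 6.80 in the metronidazole replicates. Replicate 1 of the metronidazole group was thus 40.9-fold above the control mean, while replicate 2 lay within the control range and replicate 3 was 0.73 above its own control. The mean of 3 control arrays was 5.64 ± 0.50 (SD) and that of 3 metronidazole arrays 7.66 ± 3.00, a difference of 2.02 with a standard error of 1.36. Leaving out metronidazole replicate 1 brought the difference to 0.35 (standard error 0.53).

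The gene mmp13a encodes collagenase 3, which cuts intact fibrillar collagen. It was at 5.16, 5.42 and 5.38 in control and at 9.64, 5.28 and 5.71 in the metronidazole replicates. The controls were close together here. Replicate 1 of the metronidazole group was 20.0-fold above their mean, replicate 2 lay within their range and replicate 3 was just above it. Its group difference was 1.56 (standard error 1.08), and 0.18 (standard error 0.19) without metronidazole replicate 1.

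Of the cytokine genes, il1b, the first signal of the interleukin 1 pathway, was among the genes furthest from control on this array. Its signal was 7.16, 6.78 and 7.78 in control and 12.14, 6.33 and 7.34 in the metronidazole replicates. The first metronidazole array was 29.8-fold above the control mean, and the other 2 were each below the control of the same number, by 0.45 and 0.43. The direction of the group difference therefore turned on a single array, from 1.36 (standard error 1.41) with it to -0.40 (standard error 0.41) without it.

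The gene tnfa encodes tumor necrosis factor, which activates endothelium and leukocytes. Of the 8 genes it was the closest to control on the first metronidazole array, at 3.31, 3.35 and 3.46 in control and 4.18, 3.14 and 3.44 in the metronidazole replicates. These signals are dim, since the lower quartile of the arrays lay between 3.43 and 3.5. Replicate 1 of the metronidazole group was again the highest, at 1.75-fold of the control mean, and the group difference went from 0.21 (standard error 0.27) to -0.09 (standard error 0.16) without it.

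Both chemokine genes followed the same pattern. The gene cxcl8a, the zebrafish counterpart of interleukin 8, was at 4.07, 3.998 and 4.13 in control and 7.44, 4.19 and 4.37 in the metronidazole replicates. All 3 metronidazole arrays lay above all 3 control arrays, by a wide gap in replicate 1, which was 10.3-fold above the control mean, and by a small one in the others. The group difference was 1.27 (standard error 0.82), and 0.21 (standard error 0.14) without metronidazole replicate 1.

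The gene cxcl18b, which encodes a chemokine of fish and amphibians that draws neutrophils in zebrafish, was at 5.99, 5.61 and 6.15 in control and 9.66, 5.37 and 5.65 in the metronidazole replicates. Here the other 2 metronidazole arrays were at the lower edge of the controls or just under it. The first metronidazole array was 13.4-fold above the control mean. The group difference of 0.98 (standard error 1.09) became -0.41 (standard error 0.21) without it.

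The acute phase gene saa, whose product is secreted by the liver and binds lipid, was nearly level between the controls. It was at 4.95, 4.98 and 5.01 in control and 6.35, 5.14 and 5.21 in the metronidazole replicates, so that the groups did not overlap. The first metronidazole array was 2.58-fold above the control mean, and the group difference was 0.58 (standard error 0.33), or 0.19 (standard error 0.13) without it. The gene irg1l was at 5.96, 5.82 and 6.37 in control and 8.36, 5.00 and 6.00 in the metronidazole replicates. It had the lowest value of all in metronidazole replicate 2, and its difference of 0.40 (standard error 0.79) turned to -0.55 (standard error 0.34) without metronidazole replicate 1, which was 4.97-fold above the control mean.

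**Figure D2:**
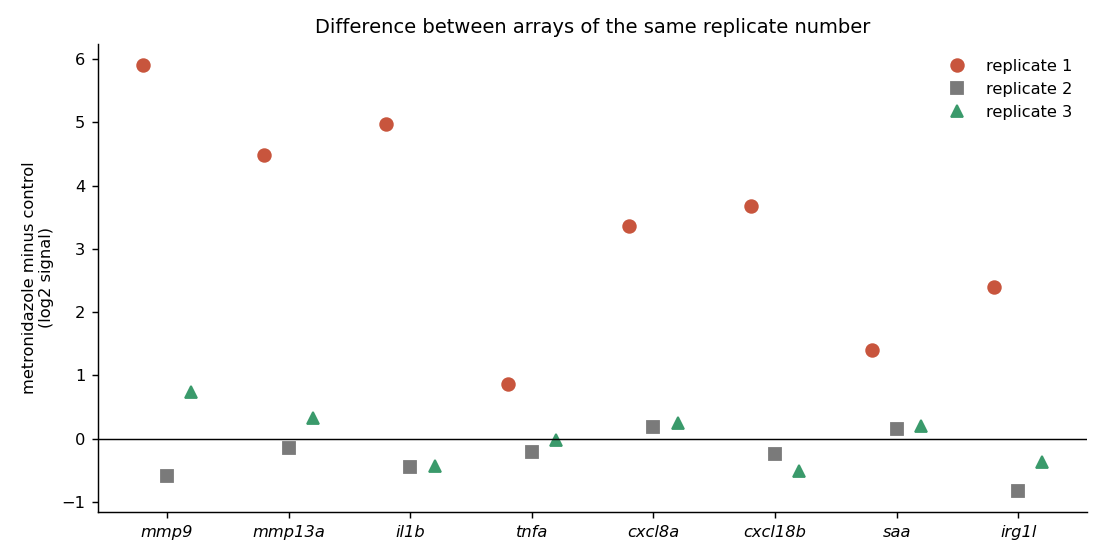
Metronidazole minus control in log2 signal for each gene, between arrays of the same replicate number. Circles are replicate 1, squares replicate 2 and triangles replicate 3. Replicate 1 lies between 0.87 for tnfa and 5.90 for mmp9, and replicates 2 and 3 lie between -0.82 and 0.73.

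Over the 8 genes, the median difference between the groups was 1.12 and went to 0.045 without metronidazole replicate 1, where the median of all genes was 0.02 in both cases. Within the replicate numbers the median over the 8 genes was 3.52, -0.23 and 0.08. Metronidazole was above control in all 3 numbers for cxcl8a and saa, in 2 for mmp9 and mmp13a and in 1 for the rest. Taken on mean log2 signals, the study's criterion of a 2-fold rise was met by 4 of the 8 genes, where 0.218% of all genes met it. These were mmp9, mmp13a, il1b and cxcl8a, and the gene just under the criterion was cxcl18b. None met it without metronidazole replicate 1 (0 of 8, against 0.109% of all genes). The groups did not overlap for 2 of 8 genes, both higher, against 5.14% of all genes higher and 5.73% lower, and the same 2, cxcl8a and saa, were free of overlap without metronidazole replicate 1, against 10.9% of all genes. These shares come from the contrast for which the genes were chosen and are given as a description.

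The spread between arrays of a group was lopsided. The median SD of the 8 genes was 2.11 between metronidazole arrays and 0.209 between control arrays, where the medians of all genes were 0.215 and 0.205. Between metronidazole arrays il1b and mmp9 varied more than 99.98% and 99.97% of genes, and even tnfa, the least variable of the set, more than 89.5%. The genes were chosen with this variation seen, so these ranks only describe it. Between control arrays the same genes were not alike: il1b and mmp9 varied more than 90.1% and 89.6% of genes, and cxcl8a and saa varied more than only 8.72% and 2.23%.

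The first metronidazole array was the highest of the 6 arrays for 8 of 8 genes, against 23.3% of all genes, and at least 1 log2 unit above the other 5 for 7 of 8, against 1.4%. The exception was tnfa, with a gap of 0.72. For the other genes the gap to the next array was 4.36 in il1b, 4.202 in mmp9, 3.93 in mmp13a, 3.51 in cxcl18b, 3.07 in cxcl8a, 2.00 in irg1l and 1.14 in saa. Among the other 5 arrays the range was smaller than this gap in each of the 8 genes, from 0.26 in saa to 1.70 in mmp9. These counts and gaps, too, describe the variation with which the genes were chosen.

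The remaining arrays kept an order only in part. Metronidazole replicate 2 was the lowest metronidazole array for 8 of 8 genes, against 31.3% of all genes. For il1b, tnfa, cxcl18b and irg1l it was also below all 3 controls, and so the lowest of the 6 arrays (4 of 8, against 13.4% of all genes). The lowest array was control replicate 1 for 3 genes, against 12.2% of all genes, and control replicate 2 for 1, against 15.4%. Metronidazole replicate 1 was the highest array for 8 of 8 genes, so it could not be the lowest for any of them. Of all genes, 25.3% were lowest of the 6 arrays there. The shares given for the lowest array, also among metronidazole arrays, are thus no like comparison, and these counts only describe the 8 genes. Metronidazole replicate 3 was above all 3 controls for mmp9, mmp13a, cxcl8a and saa, and within their range for the other 4. The share of all genes is not given for this last count, so it is no more than a description. Control replicate 3 was the highest control for 7 of 8 genes, all but mmp13a, against 32.8% of all genes. Each array held other larvae, and the replicate numbers have no order.

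**Figure D3:**
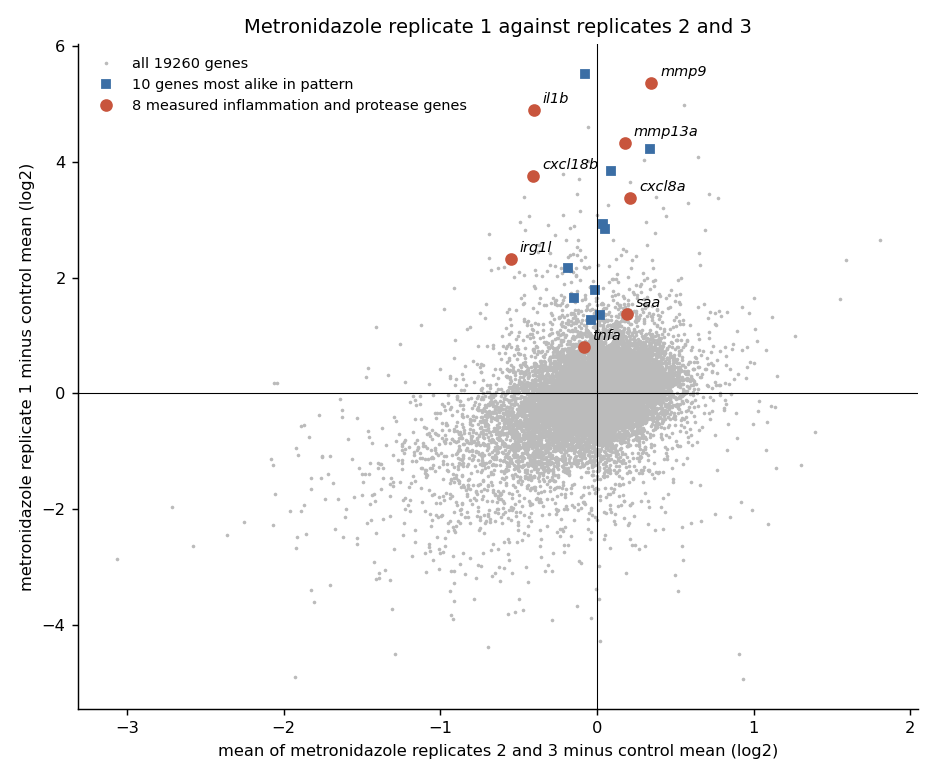
Each dot is 1 of 19260 genes, placed by the mean of metronidazole replicates 2 and 3 minus the control mean (horizontal, log2) and by metronidazole replicate 1 minus the control mean (vertical, log2). The 8 measured genes, in red and named, lie between -0.55 and 0.35 across and between 0.80 and 5.36 up. Blue squares are the 10 genes whose pattern over the arrays was most like theirs.

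Genes around these 8 in the same pathways were grouped in 5 lists with 150 distinct measured genes: receptors, related ligands and targets; Toll-like receptors, adaptors and inflammasome; NF-kB, AP-1 and feedback genes; other matrix metalloproteinases and inhibitors; and other acute phase and iron genes. Limma called 0 of them at an adjusted p under 0.05, against 0.0% of all genes. At an unadjusted p under 0.05 it gave 1 higher and 5 lower, against 1.68% and 4.27% of all genes. The one higher was mmp24, a membrane-bound metalloproteinase of neurons, with a log2 difference of 0.36 (limma unadjusted p = 0.049, adjusted p = 0.952). With the replicate number as a block, 0 of the 150 passed higher, mmp24 being lost (limma unadjusted p = 0.0604), and 12 lower, against 2.38% and 6.9% of all genes. With a single array left out these counts ran from 0 to 4 higher and from 3 to 14 lower. The shares of all genes then ran from 0.509% to 5.23% higher and from 2.13% to 7.91% lower. The first metronidazole array, on the other hand, was at least 1 log2 unit above the other 5 arrays for 29 of the 150, against 1.4% of all genes, and that much below them for 7, against 1.45%. This count was made after the values of the 8 genes were seen.

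Of these lists, the NF-kB, AP-1 and feedback genes had the most members highest in metronidazole replicate 1. It was the highest array for 33 of 37, against 23.3% of all genes, and the lowest for 0, against 25.3%. These counts, and those for the same array in the lists below, were also made after the data were seen and only describe it. The median of this list was 1.12 above the control mean on that array, and the difference between the groups had a median of 0.30 with it and -0.14 without it. Of the 3 genes with the lowest p in the list, fosl1b was at 4.73 on metronidazole replicates 1 and 3 alike (limma unadjusted p = 0.108). The gene chuk was at 8.255 in metronidazole replicate 1 against 7.445 to 7.907 on the other arrays (limma unadjusted p = 0.182). The remaining one, atf3, encodes a stress-induced transcription factor. It was at 7.09, 6.39 and 7.03 in control and 10.49, 7.14 and 6.95 in the metronidazole replicates. Here replicate 1 alone was apart (limma unadjusted p = 0.182 for the group difference of 1.36). The AP-1 gene fosl1a was at 6.92, 7.03 and 9.14 against 11.70, 7.68 and 7.59, with the third control also high. The feedback gene tnfaip3, which ends NF-kB signalling, was 4.55-fold and socs3a, which ends cytokine receptor signalling, 4.29-fold above the control mean in metronidazole replicate 1, whereas its relative socs1a was at 7.21 there, below the 7.71 of control replicate 3. The NF-kB subunit gene rel was at 2.103-fold. The genes fosl1a, tnfaip3, socs3a, socs1a and rel were picked after their values were seen.

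**Figure D4:**
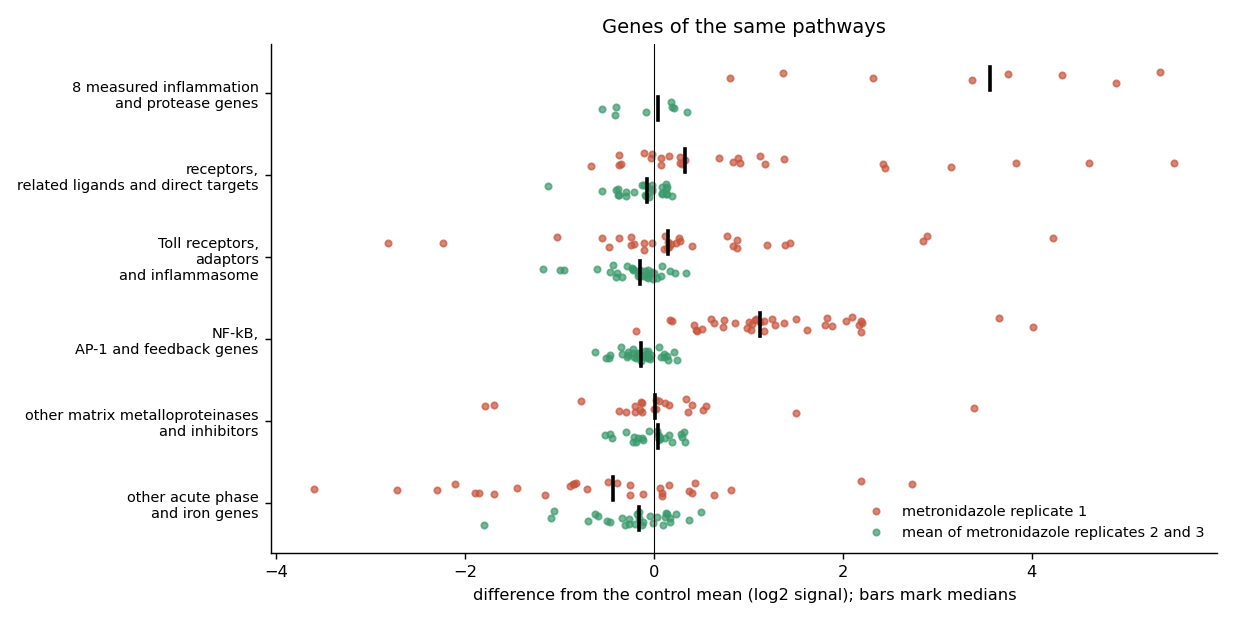
Difference from the control mean in log2 signal for the 8 measured genes and for 5 lists of the same pathways. Each red point is a gene in metronidazole replicate 1, each green point the mean of metronidazole replicates 2 and 3, and black bars are medians. In metronidazole replicate 1 the median was 3.56 for the 8 genes and 1.12 for the NF-kB, AP-1 and feedback genes, and it lay between -0.44 and 0.32 for the other lists.

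Of the 27 receptors, related ligands and targets, 14 were highest in metronidazole replicate 1, against 23.3% of all genes. At least 1 log2 unit above the other arrays were 7, against 1.4% of all genes. These 7 were secreted factors, an enzyme and 1 receptor chain. The gene il11a, an interleukin 6 family cytokine of injured tissue, was at 5.36, 5.30 and 5.42 in control and 10.87, 5.07 and 5.50 in the metronidazole replicates, so that replicate 1 alone was apart, 45.6-fold above the control mean. The granulocyte growth factor gene csf3b was 14.3-fold above the control mean there, and lepb, which encodes a leptin induced in regenerating zebrafish tissue, 24.3-fold. The others were il11b (8.84-fold), tnfb, a paralog of tnfa (5.45-fold), the prostaglandin synthase gene ptgs2a (5.38-fold) and the cytokine receptor chain gene il6st (2.59-fold). The chemokine receptor genes were closer to control: cxcr1 was at 5.35 in metronidazole replicate 1 against 4.41 to 4.64 on the other arrays, and cxcr2 at 5.37 on metronidazole replicates 1 and 3 alike. None of the list (0 of 27) passed an unadjusted p under 0.05 in limma, against 1.68% of all genes higher and 4.27% lower. The interleukin 10 receptor gene il10ra came closest, with a difference of -0.49 (standard error 0.21). Apart from csf3b and il11a, which the measure of likeness given below also names, these genes were picked after their values were seen.

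Of the 32 Toll-like receptors, adaptors and inflammasome genes, 14 were highest and 6 lowest in metronidazole replicate 1, against 23.3% and 25.3% of all genes. Both flagellin receptor genes were among the high ones, tlr5a at 7.89 and tlr5b at 9.06, against 4.77 to 5.21 and 5.89 to 6.32 on the other arrays. The gene irak3, which encodes a brake on interleukin 1 and Toll-like receptor signalling in mammals, was at 8.80 against 4.38 to 5.24, 18.6-fold above the control mean. Another Toll-like receptor gene went the other way in all metronidazole arrays: tlr21, a receptor for microbial DNA in fish and birds, was at 5.08, 5.31 and 5.60 in control and 4.301, 4.203 and 4.45 in the metronidazole replicates, without overlap. Its difference of -1.01 (standard error 0.17) had the lowest p of the list (limma unadjusted p = 0.000747, adjusted p = 0.952), and was -0.999 without metronidazole replicate 1. The inflammasome caspase gene caspb varied widely even in control, from 3.31 to 7.51, and was at 3.16, 3.96 and 5.64 in the metronidazole replicates. The inflammasome gene pycard was lowest in metronidazole replicate 1, at 4.21 against 5.48 to 7.31 on the other arrays. The genes tlr5a, tlr5b, caspb and pycard were picked after their values were seen.

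Other metalloproteinases did not share the pattern of mmp9 and mmp13a as a list. Of 24 measured genes, inhibitors included, 6 were highest and 6 lowest in metronidazole replicate 1, near the 23.3% and 25.3% of all genes. Their median difference from control on that array was 0.01. The exceptions, picked after their values were seen, were timp2b, an inhibitor of metalloproteinases, at 10.37 against 6.39 to 7.41 on the other arrays, and mmp14b, a membrane-bound metalloproteinase, at 9.72 against 7.74 to 8.52. The close relative mmp13b was at 3.66, 3.62 and 4.07 in control and 3.66, 3.33 and 3.35 in the metronidazole replicates, so that the first metronidazole array lay within the control range.

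The other acute phase and iron genes were split. Of 30 measured, 7 were highest and 14 lowest in metronidazole replicate 1, against 23.3% and 25.3% of all genes, and 22 of the 30 group differences were negative, against 46.5% of all genes. At an unadjusted p under 0.05 limma gave 4 lower (13.3%, against 4.27% of all genes) and 0 higher (against 1.68%). Under the replicate block 6 were lower, against 6.9% of all genes. Without control replicate 2 or control replicate 3 there were 2 lower, against 2.13% and 2.54% of all genes. Among the genes of this list leap2, an antimicrobial peptide gene of the liver and gut, was at 5.77, 5.26 and 5.79 in control and 4.16, 4.72 and 4.32 in the metronidazole replicates, without overlap (difference -1.21, standard error 0.22, limma unadjusted p = 0.00098, adjusted p = 0.952). The complement gene c3a.2 had a difference of -2.40 (standard error 0.78) and the pentraxin gene crp -0.60 (standard error 0.19). With the replicate number as a block the standard errors were 0.25 for leap2, 0.18 for c3a.2 and 0.16 for crp. None of these genes passed adjustment in that fit (limma adjusted p = 0.514, 0.445 and 0.586). By contrast, hpxb, which encodes a heme-binding protein, and lect2.1, a neutrophil attractant made by the liver, were 4.56-fold and 6.64-fold above the control mean in metronidazole replicate 1 and differed from it by -0.59 and -0.27 on average in the other 2. The first is also on the hepatocyte list and the other on the neutrophil list, and both were picked after their values were seen.

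Markers of leukocytes, liver, gut and skin were set beside the 8 genes on each array. The mean of the 8 genes, each centred on its 6 arrays, was between -0.64 and -0.30 in control and was 2.75, -0.89 and -0.28 in the metronidazole replicates. The 14 measured of 19 neutrophil markers lay between -0.15 and 0.21 in control and at 0.41, -0.45 and -0.16 in the metronidazole replicates, so that replicate 1 was the highest for them too, by less. Of these, 7 were highest and 2 lowest in metronidazole replicate 1, against 23.3% and 25.3% of all genes. Of the 14 group differences 8 were negative, against 46.5% of all genes, and their median was -0.06, or -0.29 without that array. The 3 with the lowest p were lower in metronidazole, with differences of -0.97 for itgb2, -0.89 for coro1a and -0.34 for ncf4. The granule enzyme gene mpx was at 9.49 in metronidazole replicate 1 against 6.15 to 7.68 on the other arrays, while lyz was at 6.59 against 6.14 to 7.14. Both mpx and lyz were picked after their values were seen. The 17 measured of 24 macrophage and microglia markers lay between -0.01 and 0.43 in control and at -0.14, -0.35 and -0.12 in the metronidazole replicates, and 16 of the 17 group differences were negative. Among these mpeg1.1, which encodes a pore-forming protein of macrophages, was at 5.99, 6.76 and 7.42 in control and 5.12, 5.32 and 5.51 in the metronidazole replicates (difference -1.40, standard error 0.35, limma adjusted p = 0.952). The part of leukocyte number in the signal of the 8 genes was not tested.

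**Figure D5:**
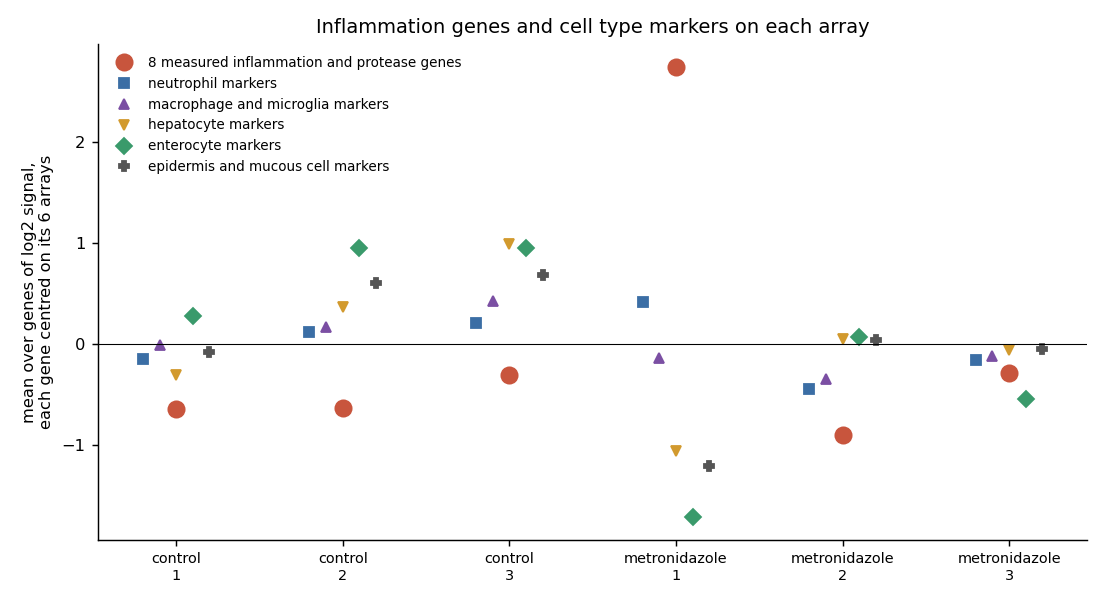
Mean over genes of the log2 signal on each array, each gene centred on its mean over the 6 arrays, for the 8 measured genes and 5 lists of cell type markers. Metronidazole replicate 1 has the highest mean of the 8 genes (2.75) and of the neutrophil markers (0.41) and the lowest means of the hepatocyte (-1.06), enterocyte (-1.71) and epidermis (-1.21) markers.

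Markers of liver, gut and skin went the opposite way on the same array. The 15 measured of 21 hepatocyte markers were at -0.30, 0.37 and 0.99 in control replicates 1 to 3 and -1.06, 0.05 and -0.06 in the metronidazole replicates. Metronidazole replicate 1 was the lowest array for 11 of them, against 25.3% of all genes. The 17 measured of 20 enterocyte markers were at 0.28, 0.95 and 0.95 in control and -1.71, 0.07 and -0.54 in metronidazole, with metronidazole replicate 1 the lowest for 13. The 23 measured of 24 markers of epidermis and mucous cells were at -0.08, 0.61 and 0.69 in control and -1.21, 0.04 and -0.05 in metronidazole, with metronidazole replicate 1 the lowest for 18. Replicate 1 was thus also the lowest of the control arrays for each of these lists. An example from skin is the mucin gene muc5.1, at 8.46, 9.65 and 10.28 in control and 7.36, 8.21 and 8.07 in the metronidazole replicates. No marker list held a gene that limma called at an adjusted p under 0.05, and the unadjusted test put 3 neutrophil, 5 macrophage, 1 hepatocyte, 8 enterocyte and 6 epidermis markers lower and 0 of these lists higher, against 4.27% and 1.68% of all genes. Without metronidazole replicate 1 the lower counts were 3, 4, 1, 7 and 2, against 3.0% of all genes. With the replicate number as a block they were 2, 7, 8, 16 and 10, against 6.9%. Leaving out control replicate 2 gave 1, 3, 0, 7 and 2, against 2.13%, and leaving out control replicate 3 gave 1, 2, 0, 8 and 3, against 2.54%. Without control replicate 1, metronidazole replicate 2 or metronidazole replicate 3 the counts ran from 1 to 4, 3 to 5, 3 to 5, 7 to 13 and 4 to 9. The shares of all genes lower in these settings were 7.91%, 4.95% and 3.34%. Whether the same larvae account for the low markers and the high inflammation genes was not tested.

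Across all genes with an SD of at least 0.5 over the 6 arrays, 2351 in number, the 10 most like the mean pattern of the 8 genes had Pearson correlations of at least 0.991 with it over 6 arrays. With 1 array far from the rest, such a correlation mainly asks whether that array is also far out in the other gene, and over the other 5 arrays alone the correlations ran from 0.669 to 0.932. They were ets2, a transcription factor gene downstream of MAP kinase, the cytokine genes csf3b and il11a, ALPK1, which in mammals encodes a sensor of bacterial sugars, mthfd1l of mitochondrial folate metabolism, the growth factor gene hbegfb, irak3, steap4, a metalloreductase gene induced by inflammation in mammals, cenpv and larp6b. Of these, il11a differed most from control on metronidazole replicate 1 and ets2 least (45.6-fold and 2.42-fold). The gene steap4 was at 6.42, 6.30 and 6.28 in control and 9.25, 6.01 and 6.73 in the metronidazole replicates. Without metronidazole replicate 1 the differences of the 10 genes from control lay between -0.185 for cenpv and 0.34 for irak3.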

How the data were processed

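The deposited values were log2 signals of 75212 transcript clusters on each Affymetrix GeneChip Zeb Gene 1.0 ST array. The authors had summarized probes to these log2 values, whose array medians were nearly equal. The labels name MAS5 without its role, and the background correction and normalization are not given in the sources used here. Gene symbols came from the platform table: 20806 transcript clusters carried 1 symbol, 855 several and 53551 none. The transcript cluster with the highest mean stood for a gene. No coordinates or sequences are given, because no genome or sequence table was used here, and the planned motif search was not run.

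Group differences were fitted with limma 3.58.1 (R 4.3.3, moderated two-sided test, 4 residual and 2.69 prior degrees of freedom). Adjusted p-values are Benjamini-Hochberg values over the whole set of transcript clusters. Standard errors are from this fit, and SDs are over 3 arrays. The number of arrays limits the precision. The fit was tried on simulated data with independent noise, each changed gene shifted alike on all metronidazole arrays. No array stood apart in them, so that trial does not show how the fit behaves on data like these. Figures used Python 3.11.15 and matplotlib 3.10.9.

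The genes and lists were chosen with earlier results of these data known. Named genes were the 8 measured ones, up to 3 genes of each list with the lowest unadjusted p, of which the text gives those that bear on the 8, and the 10 genes closest in pattern, clone codes passed over. Other names were picked after their values were seen. Arrays of the same replicate number deviated together (correlations of 0.241, 0.148 and 0.127, against -0.171 to 0.051 for other pairs), so the numbers were taken to pair the arrays. Deviations from a group mean cancel out within the group, so positive values for equal numbers push the other pairs down. The other pairs are therefore not an independent comparison. The labels do not say whether equal numbers share a batch. The reported fit has no term for them, and the fit with the replicate number as a block is given beside the counts that it moves. For the 8 genes, standard errors with that block are not given. The alternatives were other scalings, the replicate number as a block, each array left out, brighter transcript clusters only and an intensity trend. Array weights, the methods' t-test, linear means and all transcript clusters of a gene were also used. Counts for metronidazole replicate 1 alone were added after the data were seen.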

Additional observations from a re-analysis of the deposited data

How the results depend on the processing

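The median difference of the 8 genes was 1.11 with quantile normalization or median centring. As the log2 ratio of mean linear signals, which gives more weight to the highest array, it was 2.19. The replicate block and the use of all transcript clusters of a gene could not move it from 1.12. The groups are balanced over the replicate numbers, and each of the 8 genes has 1 transcript cluster. The median difference kept its sign under the other alternatives run. With 1 array left out it ran from 0.045 to 1.79, the lowest without metronidazole replicate 1. Without that array 4 of 8 genes changed sign (il1b, tnfa, cxcl18b and irg1l), and with any other array left out 0 did. The number of genes at least 2-fold higher ran from 0, without metronidazole replicate 1, to 6, without metronidazole replicate 2. It was also 6 with all arrays kept when the fold was the ratio of mean linear signals. The share of all genes at least 2-fold higher was 0.218% in the reported fit and 0.109% without metronidazole replicate 1. No such share is given for the settings with 6, so those counts have nothing to be set against. The median SD between metronidazole arrays ran from 0.256, without metronidazole replicate 1, to 2.71. Over all transcript clusters limma called 0 at an adjusted p under 0.05 in the reported fit (lowest adjusted p = 0.444), with the replicate block, with any array left out, and under the other scalings, filter, trend and weights, as did the methods' t-test. Of the 223 distinct genes of all lists, 28 were lower and 1 higher at an unadjusted p under 0.05 in the reported fit. Of all genes, 4.27% were lower and 1.68% higher. With the replicate block 53 of the 223 were lower and 0 higher, against 6.9% and 2.38% of all genes. With 1 array left out 16 to 42 were lower and 0 to 4 higher, against 2.13% to 7.91% and 0.509% to 5.23% of all genes. The lowest lower count came without control replicate 2. Before adjustment, p was under 0.05 for 1673 transcript clusters higher and 1931 lower in limma and for 1998 and 1407 in the methods' t-test. Dim signals, such as those of tnfa, limit what a fold can show.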
